A study of Mus musculus with 12 samples.

Results

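The interaction of leukemia inhibitory factor (LIF) and lithium was measured in D3 cells, a mouse embryonic stem cell line, on all 12 of the 12 expression arrays of the series. The cells had been grown for 7 days in serum-containing stem cell medium under 4 conditions, with 3 arrays each: without LIF but with lithium (LIF-free plus lithium), without LIF or lithium (LIF-free), with LIF at 1000 units per ml and lithium (LIF plus lithium), and with LIF alone (LIF). The labels give the lithium concentration as 50 nM and a biological replicate number from 1 to 3 for each array. The series' design text speaks of 3 independent experiments behind each replicate and does not say how they were combined, and nothing says whether an equal number marks a shared day. No genotype or transgene is given, and 1 cell line stands for all conditions, so the p-values measure the spread between cultures of that line. The interaction was the lithium difference in LIF-free cultures (LIF-free plus lithium minus LIF-free) minus the lithium difference in LIF cultures (LIF plus lithium minus LIF), on a log2 scale. It equals the change on LIF withdrawal with lithium (LIF-free plus lithium minus LIF plus lithium) minus the change without it (LIF-free minus LIF), and 0 means that the effects of both factors add on the log scale.

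LIF binds its receptor together with gp130 and activates the transcription factor STAT3, which keeps mouse embryonic stem cells self-renewing in serum. Klf4 and Socs3 are direct STAT3 targets, and without LIF the cells leave the naive state for primed epiblast and early lineages. Lithium inhibits the kinase GSK3, which otherwise marks beta-catenin for breakdown. Stabilised beta-catenin acts with TCF factors on Wnt targets such as Axin2 and, in stem cells, relieves repression of pluripotency genes, so GSK3 inhibitors can take over part of the role of LIF. Lithium is usually given at millimolar levels to inhibit GSK3, far above the concentration in the labels. The comparison asks whether lithium acts differently in cells that lack LIF, or LIF differently in cells that have lithium.

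The arrays measured signal per probe set, a group of probes for 1 transcript, and 27022 of 45037 probe sets were bright enough to be tested. They stood for 12737 named genes, each represented by its brightest probe set, and sizes are given only for the 8939 genes with a mean signal of 50 or more in at least 1 condition (bright genes). All 8 stem cell markers checked, among them Pou5f1 and Sox2, had a mean signal of 50 or more in every condition, so the labelled cell type had its defining markers. Their summed signal per array ran over 9089 to 13680 in LIF-free plus lithium cultures, 11210 to 14130 in LIF-free cultures, 19120 to 19730 in LIF plus lithium cultures and 16460 to 25600 in LIF cultures. Of 7 trophoblast markers, 6 reached a mean of 50 in each LIF-free condition and 3 in each LIF condition. At most 1 of 8 fibroblast, 3 of 8 endoderm, 1 of 6 neural and 1 of 6 endothelial and blood markers did so in any condition. LIF replicate 3 stood apart from the other arrays: it was the highest of all 12 arrays in 23.3% of bright genes and the lowest in 20.4%. LIF plus lithium replicate 3 was the highest in 11.9% and the lowest in 12.6%, and LIF-free plus lithium replicate 1 in 9.27% and 14.4%. In these bulk cultures, fewer cells of a type and less RNA per cell cannot be told apart.

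No gene showed an interaction that passed the test. Of the 27022 probe sets, 0 (0%) were called by limma, a linear model with moderated variances, at a Benjamini-Hochberg adjusted p under 0.05, and the smallest adjusted p was 0.806. An unadjusted p under 0.05 was found for 1604 probe sets (5.94%), of which 84.6% were positive. That split depended on how the arrays were scaled to each other: 54.4% of 1041 were positive after quantile normalisation and 51.5% of 1608 after centring each array on its median. Bright probe sets at that p were taken anew under each scaling. Of them, 69.3% were positive as deposited, 54.4% after quantile normalisation and 23.3% after median centring. Sign changes of single probe sets between scalings were not counted. As deposited, the median interaction over all tested probe sets was 0.11 log2 units, against -0.015 and -0.047 under those scalings, and over bright probe sets it was 0.019, against -0.017 and -0.14. Median signal per array moved with it, averaging 16.3 in LIF-free plus lithium and 14.3 in LIF-free arrays, against 12.8 in LIF plus lithium and 16.4 in LIF arrays. The 18S signal averaged 1077 in LIF-free plus lithium and 1182 in LIF-free arrays, against 308.9 in LIF plus lithium and 659 in LIF arrays. Single arrays spread widely, over 374.3 to 1632 in LIF-free plus lithium and 1007 to 1461 in LIF-free arrays. The 18S range was 95.16 to 713 in LIF plus lithium and 86.02 to 1364 in LIF arrays. The Gapdh 3 prime to 5 prime ratio averaged 0.782 in LIF-free plus lithium and 0.764 in LIF-free arrays, against 0.832 in LIF plus lithium and 0.816 in LIF arrays. The part of these measures in the interaction was not tested.

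Lithium alone gave no call in either setting. The lithium difference called 0 probe sets (0%) in LIF-free cultures and 0 (0%) in LIF cultures by limma, with smallest adjusted p-values of 0.9996 and 0.363. Without LIF plus lithium replicate 1, 3 probe sets were called in LIF cultures. At an unadjusted p under 0.05 the counts were 824 (574 higher and 250 lower) in LIF-free cultures and 1567 (265 higher and 1302 lower) in LIF cultures. In bright genes the median size of the lithium difference was 0.094 log2 units without LIF and 0.13 with LIF, where the 95% interval reached a median of 0.35 to either side. Across the 8939 bright genes the 2 lithium differences had a Pearson r of -0.13 and a Spearman rho of -0.14, and the same sign in 45.3% of genes. These comparisons share no array, though they share probe sets and replicate numbers.

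The intervals bound what an interaction could be. The interaction of a bright gene had a median size of 0.17 log2 units and a 95% interval with a median half-width of 0.5, and 90% of the genes lay within 0.44. For 7434 bright genes (83.2%) the whole interval lay within a 2-fold change either way, and for 2977 (33.3%) within 1.5-fold. For 251 genes (2.81%) the half-width was over 1 log2 unit. Leaving out each array in turn gave 6747 to 7864 genes bounded within 2-fold, and the model without the replicate number gave 6407. An unadjusted p under 0.05 was found in 152 bright genes with a positive interaction (1.7%) and in 121 with a negative one (1.35%). The estimate exceeded 1 log2 unit in 54 genes, 45 positive and 9 negative. In 17 of those 54 (31.5%) some condition had a mean signal under 16, against 90 of all 8939 bright genes (1.01%), so those 17 estimates rest in part on values near background.

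LIF withdrawal changed largely overlapping sets of genes with and without lithium, and by similar amounts. With lithium, limma called 5938 probe sets (22%), and without lithium 5260 (19.5%). Among bright genes 1548 rose (17.3%) and 1369 fell (15.3%) in LIF-free plus lithium against LIF plus lithium cultures, and 1499 rose (16.8%) and 1209 fell (13.5%) in LIF-free against LIF cultures. Without the replicate number in the model the counts were 3368 probe sets with lithium and 2515 without. The count with lithium was 3410 without LIF-free plus lithium replicate 2, 3789 without LIF plus lithium replicate 2 and 3864 without LIF plus lithium replicate 3. For withdrawal without lithium, leaving out LIF-free replicate 3 gave 2805 calls, LIF-free replicate 2 gave 2916 and LIF replicate 2 gave 3375. Both comparisons called 2063 genes in the same direction, which is 70.7% of the 2917 called with lithium and 76.2% of the 2708 called without, and 0 in opposite directions. The 854 genes called only with lithium and the 645 called only without do not differ between the settings by that alone, and 0 of them had a called interaction. Genes called with lithium changed by a median of 0.8 log2 units with lithium and by 0.7 in that direction without it. Genes called without lithium changed by 0.77 in their direction with lithium and by 0.8 without, so each set was somewhat larger in the comparison that chose it. Across all bright genes the 2 changes had a Pearson r of 0.91 and a Spearman rho of 0.85, from 6 arrays each with none in common.

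**Figure D1:**
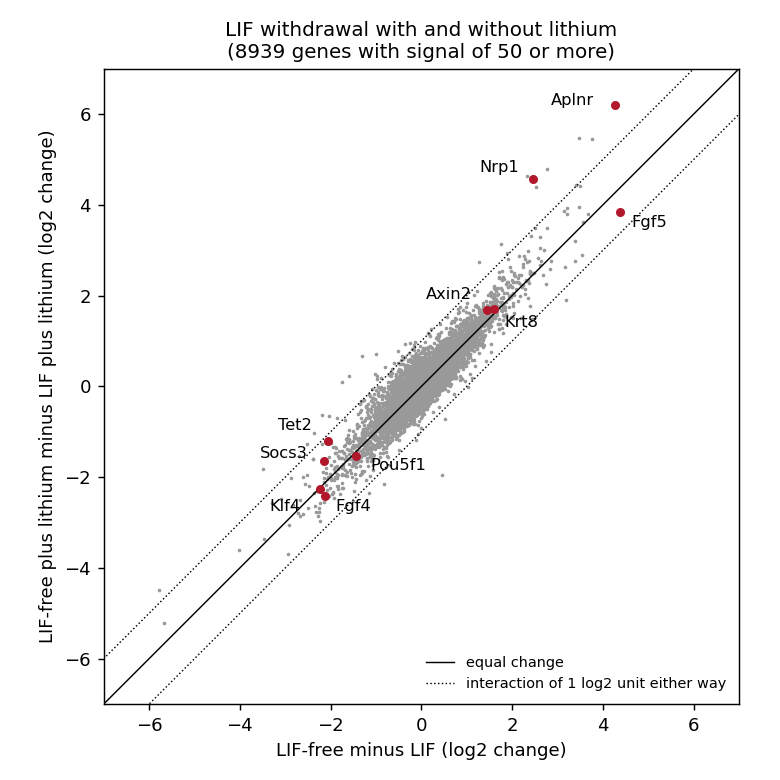
Log2 change on LIF withdrawal with lithium (vertical axis, LIF-free plus lithium minus LIF plus lithium) against that without lithium (horizontal axis, LIF-free minus LIF), 1 point for each of 8939 bright genes, with 10 genes in red. Points follow the line of equal change (r = 0.91), and 54 lie beyond the dotted lines that mark an interaction of 1 log2 unit.

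The STAT3 targets Klf4 and Socs3 fell without LIF both with and without lithium, and neither had a called interaction. Klf4, a Kruppel-like factor that LIF maintains through STAT3, had signals of 261, 368 and 379 in LIF-free plus lithium cultures and 252, 322 and 389 in LIF-free cultures, against 1300, 1600 and 1950 in LIF plus lithium cultures and 1070, 1740 and 1780 in LIF cultures. Both LIF-free conditions lay below both LIF conditions with no overlap, while arrays with and without lithium interleaved. Klf4 fell by 2.27 log2 units on withdrawal with lithium (adjusted p = 3.88e-07, limma) and by 2.24 without lithium (adjusted p = 4.54e-07), so its interaction was -0.027 (95% interval -0.37 to 0.31). Socs3, the feedback inhibitor of the LIF receptor, had signals of 85.5, 77.4 and 77.1 in LIF-free plus lithium cultures and 66.5, 69.3 and 82.2 in LIF-free cultures, against 219, 264 and 273 in LIF plus lithium cultures and 209, 268 and 573 in LIF cultures. It too fell in both settings, by 1.65 with lithium and by 2.13 without. Its interaction of 0.48 (95% interval -0.22 to 1.19) rested on LIF replicate 3, the highest array, without which it was 0.10. Stat3 itself, with an interaction of 0.42 (95% interval -0.21 to 1.04) that was 0.085 without that array, was called in neither withdrawal (log2 change -0.019 with and -0.44 without lithium). Cish, another cytokine-induced inhibitor, had an interaction of 0.54 (95% interval -0.21 to 1.28), which was 0.29 without LIF-free replicate 1. Of 24 bright genes of the LIF receptor, STAT3 and targets list, 0 had a called interaction and 0 an unadjusted p under 0.05. Their median interaction was 0.08, against -0.0036 over all bright genes. On withdrawal 3 rose and 9 fell with lithium, and 1 rose and 11 fell without. Of all bright genes, 17.3% rose and 15.3% fell with lithium, and 16.8% rose and 13.5% fell without.

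The pluripotency network lost expression without LIF whether or not lithium was present. Pou5f1, which encodes Oct4, had signals of 509, 720 and 1010 in LIF-free plus lithium cultures and 685, 764 and 938 in LIF-free cultures, against 1760, 2070 and 2420 in LIF plus lithium cultures and 1370, 2140 and 3330 in LIF cultures. All 6 LIF-free arrays lay below all 6 LIF arrays, and its interaction was -0.083 (95% interval -0.53 to 0.37). Nanog had signals of 431, 833 and 1180 in LIF-free plus lithium cultures and 679, 958 and 1120 in LIF-free cultures, against 1350, 1900 and 1880 in LIF plus lithium cultures and 1330, 1760 and 1760 in LIF cultures, and its interaction was -0.34 (95% interval -0.83 to 0.16). Its LIF-free plus lithium replicate 1 was the lowest of 12 arrays, and without it the interaction was -0.10. Sox2, the partner of Oct4, had an interaction of -0.062 (95% interval -0.55 to 0.43), Zfp42 (Rex1, a marker of the naive state) -0.28 (95% interval -0.72 to 0.16), and Esrrb, an orphan nuclear receptor downstream of GSK3 and Tcf7l1, an interaction of 0.033 (95% interval -0.50 to 0.57). All 5 fell in both withdrawals, Esrrb by 1.88 log2 units with lithium and by 1.91 without. Without LIF replicate 3 the interaction of Pou5f1 was -0.24 and that of Esrrb -0.15.

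Of 29 bright pluripotency genes, 0 had a called interaction, and the median was -0.076. With lithium 23 of them fell and 1 rose on LIF withdrawal, and without lithium 24 fell and 0 rose. Of all bright genes, 15.3% fell with lithium and 13.5% without. Prdm14, a repressor of FGF signalling in naive cells, had signals of 40.8, 85.1 and 117 in LIF-free plus lithium cultures and 63.4, 101 and 118 in LIF-free cultures, against 150, 231 and 250 in LIF plus lithium cultures and 152, 190 and 172 in LIF cultures. Its interaction of -0.57 (95% interval -1.17 to 0.036, unadjusted p = 0.0632, limma) was not called, with an adjusted p of 0.806. It was -0.33 without LIF-free plus lithium replicate 1 and -0.35 without LIF replicate 3, with an unadjusted p of 0.268 without the replicate number in the model. Tcl1, a coactivator of the kinase Akt, had an interaction of -0.51 (95% interval -1.15 to 0.12, unadjusted p = 0.104), which was -0.17 without LIF-free plus lithium replicate 1. Tet2, an enzyme that oxidises methylcytosine, was the 1 network gene with an unadjusted p under 0.05 (0.00588).

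**Figure D2:**
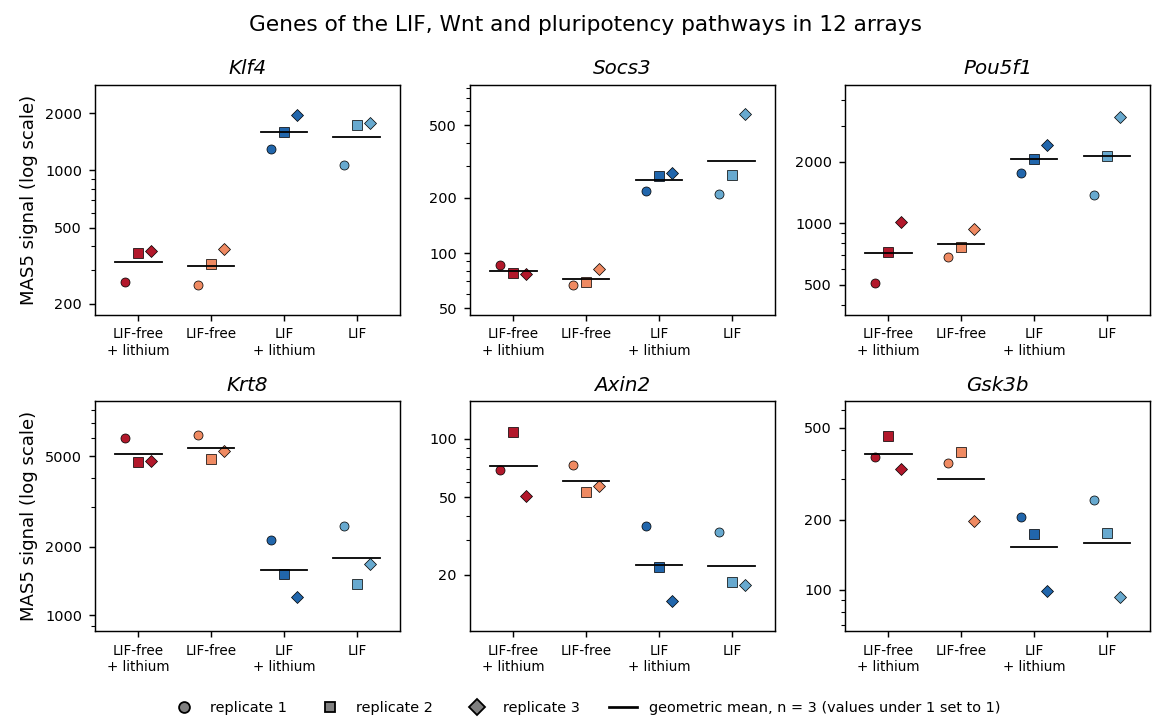
MAS5 signal (log axis) of 6 genes in the 12 arrays, by condition from LIF-free plus lithium to LIF, with a symbol per replicate number and a bar at the geometric mean of 3 arrays. Klf4, Socs3 and Pou5f1 are lower and Krt8 and Axin2 higher in both LIF-free conditions, and arrays with and without lithium overlap within each LIF state in every panel.

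Of 15 bright Wnt targets, 12 rose on LIF withdrawal with lithium and 10 without, beside 17.3% and 16.8% of all bright genes, and 0 had a called interaction. The Wnt-binding antagonist Sfrp1 fell in both settings, by 0.97 log2 units with lithium (adjusted p = 0.0115, limma) and by 0.95 without (adjusted p = 0.0145). Axin2, a feedback scaffold of the destruction complex and the usual readout of beta-catenin, had signals of 69, 108 and 50.7 in LIF-free plus lithium cultures and 73, 53.3 and 56.8 in LIF-free cultures, against 35.4, 22 and 14.7 in LIF plus lithium cultures and 33.2, 18.3 and 17.8 in LIF cultures. LIF-free arrays lay above LIF arrays, and lithium arrays overlapped their counterparts. Axin2 rose by 1.68 log2 units on withdrawal with lithium and by 1.45 without it. Its lithium difference was 0.26 (95% interval -0.37 to 0.88) without LIF and 0.028 (95% interval -0.60 to 0.65) with LIF, and its interaction was 0.23 (95% interval -0.65 to 1.11). The sign of that estimate turned to -0.14 without LIF-free plus lithium replicate 2. Over the 15 targets 0 had an unadjusted interaction p under 0.05, the median interaction was 0.23, and the median change on withdrawal was 1.68 with lithium and 1.68 without. Only 5 of the 15 had an interaction interval within 2-fold, beside 83.2% of all bright genes. Cdx2, a homeobox factor of trophoblast and posterior embryo, rose by 2.17 log2 units on withdrawal with lithium and by 1.68 without, with an interaction of 0.48 (95% interval -0.67 to 1.64). Apcdd1, a membrane-bound Wnt inhibitor, had an interaction of 0.36 (95% interval -0.43 to 1.16), and Ascl2, a trophoblast and intestinal stem cell factor, an interaction of 0.34 (95% interval -0.45 to 1.13). Without LIF replicate 3 the interaction was 0.11 for Cdx2 and -0.0037 for Ascl2. That of Apcdd1 was 0.11 without LIF replicate 1.

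The components that lithium acts on were measured in the same way. Gsk3b, the kinase itself, had signals of 374, 462 and 333 in LIF-free plus lithium cultures and 353, 394 and 197 in LIF-free cultures, against 205, 174 and 99 in LIF plus lithium cultures and 244, 176 and 92.9 in LIF cultures. It was higher in LIF-free cultures both with lithium (log2 change 1.34, adjusted p = 0.000244, limma) and without (0.93, adjusted p = 0.00345), and its interaction was 0.41 (95% interval -0.15 to 0.97). Ctnnb1, beta-catenin, had signals between 3600 and 4910 over the 12 arrays, and an interaction of 0.012 (95% interval -0.33 to 0.35). This is transcript level and not protein, on which GSK3 acts. Among 15 bright genes of the GSK3, destruction complex and TCF list, the median interaction was 0.077. Intervals lay within 2-fold for 12 of these 15, beside 83.2% of all bright genes. Bcl9, a coactivator that binds beta-catenin, was the 1 with an unadjusted p under 0.05. Its signals were 76.5, 81.7 and 67.4 in LIF-free plus lithium cultures and 51, 69.7 and 58 in LIF-free cultures, against 38.4, 41.7 and 24 in LIF plus lithium cultures and 53.1, 36.8 and 47.7 in LIF cultures, and its interaction was 0.77 (95% interval 0.052 to 1.49, unadjusted p = 0.0373). Its replicates gave interactions of 1.05, 0.049 and 1.21, so replicate 2 carried almost none of it, and it was 0.54 (unadjusted p = 0.125) without LIF plus lithium replicate 3. Btrc, the ubiquitin ligase subunit that recognises phosphorylated beta-catenin, had an interaction of 0.66 (95% interval -0.15 to 1.47), which was 0.25 without LIF replicate 3.

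Wnt ligands and receptors had a median interaction of 0.30 over 17 bright genes, with 1 positive and 1 negative estimate at an unadjusted p under 0.05. Only 6 of the 17 had intervals within 2-fold, beside 83.2% of all bright genes. Wnt4, a Wnt ligand, had signals of 124, 137 and 106 in LIF-free plus lithium cultures and 103, 123 and 116 in LIF-free cultures, against 56.7, 41.2 and 22.4 in LIF plus lithium cultures and 58.8, 63.6 and 73.3 in LIF cultures. It was higher without LIF in both settings, and LIF plus lithium arrays lay below LIF arrays. Its interaction was 0.89 (95% interval 0.12 to 1.67, unadjusted p = 0.0274), and it was 0.52 (unadjusted p = 0.0976) without LIF plus lithium replicate 3 and 0.65 (unadjusted p = 0.0824) without LIF replicate 3. Fzd5, a Frizzled receptor expressed in naive stem cells, had signals of 74.8, 99.3 and 83.3 in LIF-free plus lithium cultures and 103, 125 and 103 in LIF-free cultures, against 148, 279 and 308 in LIF plus lithium cultures and 151, 226 and 199 in LIF cultures. All LIF-free arrays lay below all LIF arrays, and the interaction was -0.67 (95% interval -1.21 to -0.13, unadjusted p = 0.0192), or -0.46 (unadjusted p = 0.0783) without LIF plus lithium replicate 3. Wnt6 had an interaction of 0.48 (95% interval -0.22 to 1.18). Of 10 bright genes of the lithium-sensitive phosphatases and inositol supply list, 9 had intervals within 2-fold, beside 83.2% of all bright genes. The list holds enzymes that lithium can inhibit directly or that feed the same pathway, and its median interaction was -0.021. Impa1, inositol monophosphatase, had an interaction of -0.27 (95% interval -0.74 to 0.19), Bpnt1, a bisphosphate nucleotidase, an interaction of -0.33 (95% interval -0.88 to 0.23), and Cdipt, phosphatidylinositol synthase, an interaction of -0.45 (95% interval -1.12 to 0.22). LIF replicate 3 was the lowest LIF array for all 3, and without it the interactions were -0.068 for Impa1, -0.13 for Bpnt1 and -0.058 for Cdipt.

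Among listed genes the largest positive estimates were in mesoderm genes with dim LIF arrays. Fgf5, the growth factor that marks primed epiblast, had signals of 54.6, 108 and 150 in LIF-free plus lithium cultures and 114, 108 and 143 in LIF-free cultures, against 27.2, 11.2 and 0.737 in LIF plus lithium cultures and 32.6, 4.16 and 1.44 in LIF cultures. It rose in both withdrawals (log2 change 3.83 with lithium, adjusted p = 0.00998, and 4.38 without, adjusted p = 0.00531, limma). LIF signals of 1.44 and LIF plus lithium signals of 0.737 were at or near the floor, so its interaction of -0.55 had an interval of -3.39 to 2.30 that bounds little. Over 16 bright primed epiblast genes the median interaction was -0.0011. Cdh2, N-cadherin, had signals of 304, 264 and 111 in LIF-free plus lithium cultures and 384, 307 and 103 in LIF-free cultures, against 60.9, 17.1 and 8.81 in LIF plus lithium cultures and 147, 25.2 and 21.9 in LIF cultures, with an interaction of 0.90 (95% interval -0.17 to 1.97, unadjusted p = 0.0923) that was 0.49 without LIF replicate 1 and 1.37 without LIF replicate 2.

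Aplnr encodes the receptor that apelin binds in early mesoderm, and had signals of 250, 276 and 156 in LIF-free plus lithium cultures and 424, 304 and 163 in LIF-free cultures, against 27.3, 0.453 and 0.137 in LIF plus lithium cultures and 70.6, 2.96 and 13.9 in LIF cultures. Its LIF-free arrays lay above all LIF arrays with and without lithium, and its interaction was 1.93 (95% interval -0.49 to 4.34, unadjusted p = 0.109). With 16 signal units added before log2 that estimate was 0.39, and leaving out 1 array gave 1.14 to 3.00. Hand2, a basic helix-loop-helix factor of heart and limb, had signals of 139, 41.2 and 22.7 in LIF-free plus lithium cultures and 131, 61.1 and 27.4 in LIF-free cultures, against 6.62, 0.905 and 2.12 in LIF plus lithium cultures and 21.6, 7.26 and 7.18 in LIF cultures, with an interaction of 1.86 (95% interval 0.58 to 3.14, unadjusted p = 0.00775). The same addition brought it to 0.35 (unadjusted p = 0.368), and without the replicate number in the model its p was 0.132. Lhx1, a homeobox factor of the node, had signals of 41, 77.2 and 28.9 in LIF-free plus lithium cultures and 61.8, 84.1 and 23.4 in LIF-free cultures, against 0.901, 1.06 and 0.375 in LIF plus lithium cultures and 21.3, 1.1 and 3.86 in LIF cultures, with an interaction of 2.004 (95% interval -0.44 to 4.45). Its replicates gave interactions of 3.83, -0.067 and 2.25, and the estimate was 0.90 without LIF replicate 1 and 3.29 without LIF replicate 2. In all 3 genes the estimate came from lower LIF plus lithium than LIF signals, at levels where background weighs most. The cardiac and early mesoderm list had a median interaction of 0.23 over 8 bright genes, and the primitive streak and node list 0.23 over 8. Intervals lay within 2-fold for 3 genes of the mesoderm list and 2 of the streak list, beside 83.2% of all bright genes. In both lists 0 genes passed the adjusted test, and Hand2 and Nodal were the only ones with an unadjusted p under 0.05.

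Cdh11, a mesenchymal cadherin, had signals of 348, 159 and 25.9 in LIF-free plus lithium cultures and 241, 181 and 36.9 in LIF-free cultures, against 9, 1.9 and 1.02 in LIF plus lithium cultures and 42.6, 3.21 and 4.84 in LIF cultures. It rose in both withdrawals, and its interaction was 1.69 (95% interval 0.084 to 3.30, unadjusted p = 0.0406), with 0.54 after adding 16 units (unadjusted p = 0.341), 1.23 to 2.52 when 1 array was left out, and a p of 0.318 without the replicate number in the model. Of 16 bright genes of the cadherin, Snail, Zeb and claudin list, 13 rose on withdrawal with lithium and 13 without. Of all bright genes, 17.3% and 16.8% did so, and the median interaction of the list was 0.13. Cldn6, a claudin of early epithelia, had an interaction of 0.45 (95% interval -0.13 to 1.03), which was 0.12 without LIF plus lithium replicate 3. Dlk1, an imprinted Notch-like ligand, had signals of 128, 150 and 54.8 in LIF-free plus lithium cultures and 103, 190 and 64.1 in LIF-free cultures, against 9.55, 12.9 and 12.4 in LIF plus lithium cultures and 39.1, 20.4 and 40.2 in LIF cultures. Its LIF plus lithium arrays lay below its LIF arrays, and its interaction was 1.38 (95% interval 0.16 to 2.60, unadjusted p = 0.0294). It was 0.74 with 16 units added (unadjusted p = 0.103) and 0.95 (unadjusted p = 0.101) without LIF replicate 3. Ndn, an imprinted growth suppressor, went the other way with -0.87 (95% interval -1.57 to -0.17, unadjusted p = 0.0179), or -0.66 (unadjusted p = 0.055) without LIF replicate 3. The median over 16 bright imprinted genes was an interaction of 0.23. Of them, 13 rose on withdrawal with lithium and 13 without, beside 17.3% and 16.8% of all bright genes.

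Of 16 bright simple-epithelium and trophoblast genes, 13 rose on LIF withdrawal with lithium and 12 without, beside 17.3% and 16.8% of all bright genes. Krt8, a keratin of simple epithelium and trophectoderm, had signals of 6050, 4730 and 4760 in LIF-free plus lithium cultures and 6180, 4880 and 5280 in LIF-free cultures, against 2150, 1520 and 1200 in LIF plus lithium cultures and 2470, 1380 and 1680 in LIF cultures. Every LIF-free array exceeded every LIF array, and the interaction was 0.11 (95% interval -0.32 to 0.53). The median interaction of the list was 0.14. Hand1, a trophoblast and mesoderm factor, had an interaction of 0.58 (95% interval -0.53 to 1.69), Gata2 0.34 (95% interval -0.42 to 1.10), and Peg10, an imprinted gene required for the placenta, an interaction of 0.45 (95% interval -0.25 to 1.16). Without LIF replicate 3 these were 0.15 for Hand1, 0.22 for Gata2 and 0.23 for Peg10. Gata6, an endoderm factor, had signals of 118, 103 and 60.8 in LIF-free plus lithium cultures and 165, 133 and 92.7 in LIF-free cultures, against 84.1, 50.7 and 120 in LIF plus lithium cultures and 120, 48.3 and 78.1 in LIF cultures. It was called in neither withdrawal, with an interaction of -0.54 (95% interval -1.502 to 0.42) that was -0.085 without LIF plus lithium replicate 3. The primitive and visceral endoderm list had the lowest median among lists with over 10 bright genes, -0.27 over 16. Srgn, a proteoglycan core protein, had signals of 96, 80.8 and 163 in LIF-free plus lithium cultures and 203, 63.8 and 299 in LIF-free cultures, against 325, 233 and 621 in LIF plus lithium cultures and 386, 208 and 200 in LIF cultures. Its interaction was -1.06 (95% interval -2.08 to -0.035, unadjusted p = 0.0436), with replicates of -0.83, 0.18 and -2.51, so replicate 2 opposed the others, and it was -0.51 (unadjusted p = 0.146) without LIF replicate 3. Cubn, an uptake receptor of visceral endoderm, had an interaction of -0.59 (95% interval -1.39 to 0.21), and Lama1, a laminin chain of basement membrane, an interaction of -0.51 (95% interval -1.24 to 0.22). They were -0.16 and -0.29 without LIF replicate 3.

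The other lineage lists held few bright genes. The 5 neural genes had a median interaction of 0.04, with Ncam1, a cell adhesion molecule, at an interaction of 0.52 (95% interval -0.05 to 1.09). The 6 fibroblast and feeder genes had a median interaction of 0.28, with Acta2, smooth muscle actin, at an interaction of 0.51 (95% interval -0.015 to 1.03), or 0.30 without LIF replicate 3. Pecam1, a surface protein of endothelium that naive stem cells also carry, had an interaction of -0.43 (95% interval -1.15 to 0.29), or -0.092 without LIF-free plus lithium replicate 1. Over 10 germ cell and 2-cell-like genes the median was -0.23, with Ddx4, a germ cell helicase, at an interaction of -0.44 (95% interval -1.01 to 0.12) and the X-linked homeobox gene Rhox5 at an interaction of -0.55 (95% interval -1.25 to 0.16). Without LIF replicate 3 the interaction was -0.18 for Ddx4 and -0.24 for Rhox5. The endothelium and blood list held only 2 bright genes. In these 4 lists 0 bright genes had an unadjusted interaction p under 0.05.

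Signalling lists outside the Wnt and LIF pathways were likewise without calls. Among 14 bright BMP, Id and Msx genes the median interaction was 0.13. Id4, an inhibitor of DNA binding, had signals of 70.5, 83 and 77.5 in LIF-free plus lithium cultures and 74.3, 103 and 96 in LIF-free cultures, against 110, 152 and 117 in LIF plus lithium cultures and 98.2, 90.4 and 119 in LIF cultures, with an interaction of -0.52 (95% interval -1.04 to -0.0082, unadjusted p = 0.0469) that was -0.34 (unadjusted p = 0.162) without LIF replicate 2. Id1, the BMP target that works with LIF in self-renewal, had an interaction of 0.47 (95% interval -0.17 to 1.11), and Bmp2, which rose by 3.79 log2 units on withdrawal with lithium and 3.21 without, an interaction of 0.59 (95% interval -0.70 to 1.87). Leaving out 1 array gave 0.27 to 0.76 for Id1 and -0.041 to 1.03 for Bmp2. Fgf4, the growth factor that drives exit from the naive state, had signals of 59.1, 168 and 177 in LIF-free plus lithium cultures and 81.3, 154 and 168 in LIF-free cultures, against 443, 785 and 780 in LIF plus lithium cultures and 353, 680 and 735 in LIF cultures. It fell by 2.42 log2 units with lithium and by 2.13 without, and its interaction was -0.29 (95% interval -0.74 to 0.16), or -0.091 without LIF-free plus lithium replicate 1. The median over 16 bright genes of FGF signalling and ERK feedback was 0.21, with Fgfr1 at an interaction of 0.60 (95% interval -0.18 to 1.37) and Dusp4, a phosphatase that switches off ERK, at an interaction of -0.53 (95% interval -1.40 to 0.34). Leaving out 1 array gave 0.26 to 1 for Fgfr1 and -0.78 to -0.091 for Dusp4.

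Growth, metabolism and stress lists held no called interaction either. All 21 bright genes of DNA replication and mitosis had intervals within 2-fold, beside 83.2% of all bright genes. The interactions of these 21 had a median of -0.0064. Mcm2, a subunit of the replicative helicase, had the largest of them, an interaction of -0.50 (95% interval -0.99 to -0.015, unadjusted p = 0.0441), with replicates of -0.12, -0.18 and -1.21, and was -0.26 (unadjusted p = 0.119) without LIF replicate 3. All 11 bright ribosomal protein genes also lay within 2-fold. Their median was 0.22 as deposited, and Rpl8 had an interaction of 0.30 (95% interval -0.23 to 0.84), which was 0.11 after quantile normalisation and 0.12 without LIF replicate 3. The Myc and G1 list had a median interaction of 0.045 over 20, p53 targets -0.029 over 14, glycolysis and hypoxia 0.12 over 19, and cholesterol synthesis -0.084 over 18. Pmvk, phosphomevalonate kinase, had an interaction of -0.49 (95% interval -0.92 to -0.052, unadjusted p = 0.031), or -0.37 (unadjusted p = 0.108) without LIF plus lithium replicate 3. In the ATF4 and stress list (median -0.061 over 20), Xbp1, a factor of the unfolded protein response, had signals of 686, 802 and 939 in LIF-free plus lithium cultures and 907, 992 and 1080 in LIF-free cultures, against 833, 1310 and 1360 in LIF plus lithium cultures and 944, 1070 and 754 in LIF cultures. Its interaction was -0.62 (95% interval -1.12 to -0.13, unadjusted p = 0.0179), and LIF replicate 3, the lowest LIF array, took part in it: without it the estimate was -0.38. The p of Xbp1 was 0.0608 without LIF plus lithium replicate 3. Psph, the last enzyme of serine synthesis, had an interaction of -0.41 (95% interval -0.79 to -0.035, unadjusted p = 0.0345), with a p of 0.109 without LIF-free plus lithium replicate 2.

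Of the remaining lists, collagens, laminins and matrix had a median interaction of 0.16 over 14 bright genes, with Lama5, a laminin chain, at an interaction of 0.60 (95% interval 0.042 to 1.16, unadjusted p = 0.0369) that was 0.37 (unadjusted p = 0.106) without LIF replicate 3. Interferon-stimulated genes had a median interaction of 0.10 over 16. Psmb8, a catalytic subunit of the immunoproteasome, had the lowest estimate of that list, an interaction of -1.29 (95% interval -2.82 to 0.24) with a range of -1.98 to -0.70 when 1 array was left out, from signals of 61.8, 75.1 and 108 in LIF-free plus lithium cultures and 92.1, 86.9 and 129 in LIF-free cultures, against 43.5, 19 and 11.7 in LIF plus lithium cultures and 32.6, 5.46 and 7.62 in LIF cultures. The 3 bright Hox genes and cofactors had a median interaction of 0.73. Meis2, a Hox cofactor, had an interaction of 0.73 (95% interval -0.29 to 1.75), and was 0.21 without LIF replicate 1, the highest LIF array. Over all 29 lists, 0 genes had a called interaction, beside 0% of all probe sets. Of the 90 named genes outside the 24 of smallest p, 79 moved by over 1.5 times or turned sign without some array, 48 of them without LIF replicate 3. This measure is relative to the estimate, so a gene near 0 counts after a small shift. Ctnnb1, for example, moved from 0.012 to -0.074 without LIF-free replicate 2. Of the 14 among these 90 with an unadjusted p under 0.05, 13 lost it without some array, and 10, Hand2 among them, without the replicate number in the model.

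**Figure D3:**
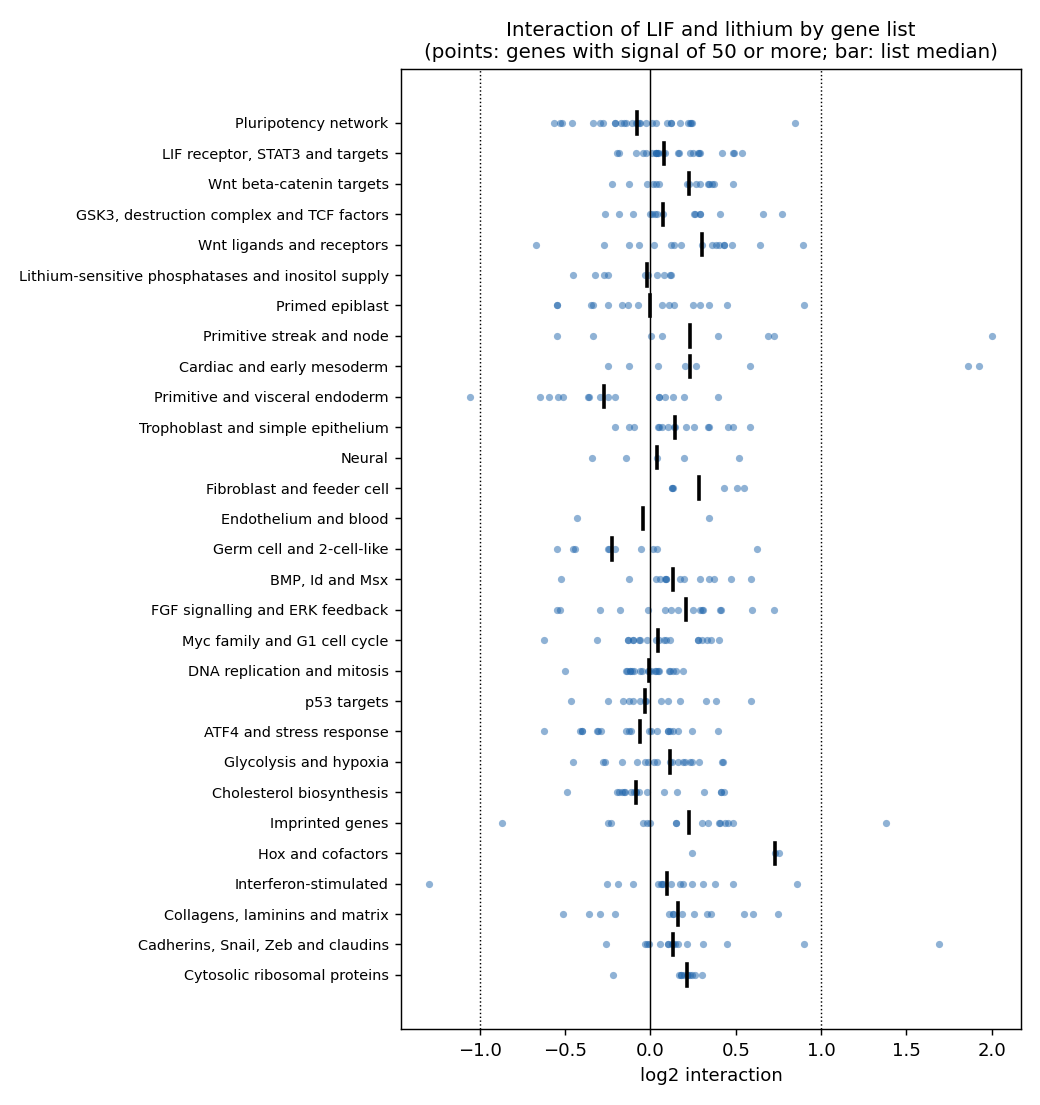
Log2 interaction (horizontal axis) of each bright gene in 29 gene lists (rows), 1 point per gene, with a bar at the list's median. Most points lie between the dotted lines at 1 log2 unit either way, and none has a called interaction. The points beyond the line on the right are Lhx1, Hand2, Aplnr, Dlk1 and Cdh11, and on the left Srgn and Psmb8.

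The genes with the smallest interaction p were examined although all missed the threshold, 12 in each direction. Among the 12 positive ones the unadjusted p ran from 0.000152 to 0.00588 and the adjusted p was 0.806 for each (limma). Ranking by p favours genes with 1 sign in all 3 replicates, which 2450 of all 8939 bright genes (27.4%) had, so nothing is read from it. Nrp1, a co-receptor for semaphorins and VEGF, had the smallest p. Its signals were 367, 150 and 117 in LIF-free plus lithium cultures and 290, 144 and 59.7 in LIF-free cultures, against 22.4, 7.58 and 2.84 in LIF plus lithium cultures and 85.5, 16.6 and 10.4 in LIF cultures. Within each replicate LIF-free exceeded LIF in both settings, and LIF plus lithium was below LIF. Nrp1 rose by 4.57 log2 units on withdrawal with lithium and by 2.47 without, and its interaction was 2.10 (95% interval 1.23 to 2.97, unadjusted p = 0.000152). Its 3 other probe sets gave interactions of 1.03, 1.07 and 1.41, each with an interval that included 0, and with 16 signal units added before log2 the brightest set gave 1.18. Without the replicate number in the model the unadjusted p was 0.105 for Nrp1, and 8 of the 24 genes then had a p of 0.05 or more, from 0.0607 to 0.177. They were Nrp1, Ncoa3, Nodal, Fdx1, Cd1d1, Tmem14a, Rfx3 and Psmg2. When 1 array was left out, 5 of the 24 (Nodal, Rfx3, Tmem14a, Tcl1b3 and Cyb5a) had a p of 0.05 or more, at most 0.0583.

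Map3k12, a kinase upstream of JNK, had signals of 122, 95 and 91.1 in LIF-free plus lithium cultures and 113, 80.2 and 83.8 in LIF-free cultures, against 77.2, 48.7 and 38.5 in LIF plus lithium cultures and 128, 94.6 and 106 in LIF cultures. The LIF plus lithium arrays lay below all 9 others, and the remaining conditions overlapped. Its interaction was 1.21 (95% interval 0.69 to 1.73, unadjusted p = 0.000202), with 1.10 without LIF replicate 3 and 0.37 in its other bright probe set. Ncoa3, a coactivator of nuclear receptors that works with Esrrb, had signals of 470, 303 and 250 in LIF-free plus lithium cultures and 350, 242 and 299 in LIF-free cultures, against 333, 166 and 120 in LIF plus lithium cultures and 504, 259 and 231 in LIF cultures. Within each replicate LIF plus lithium was below LIF, and the interaction was 0.89 (95% interval 0.34 to 1.45, unadjusted p = 0.00401). Its other probe set had an interaction of -0.12, on the other side of 0. Tet2 had signals of 73.5, 67.3 and 76.8 in LIF-free plus lithium cultures and 67.6, 45.3 and 38.2 in LIF-free cultures, against 179, 165 and 158 in LIF plus lithium cultures and 219, 168 and 228 in LIF cultures. LIF-free plus lithium exceeded LIF-free in each replicate, and both lay below all LIF arrays. Tet2 fell by 1.21 log2 units on withdrawal with lithium and by 2.05 without, an interaction of 0.85 (95% interval 0.29 to 1.41, unadjusted p = 0.00588), and its other probe set had an interaction of 0.37.

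Ube2n, a ubiquitin-conjugating enzyme, had signals of 692, 910 and 1070 in LIF-free plus lithium cultures and 615, 765 and 702 in LIF-free cultures, against 586, 760 and 554 in LIF plus lithium cultures and 679, 831 and 1540 in LIF cultures. LIF replicate 3 was the highest of them, and the interaction was 0.95 (95% interval 0.33 to 1.56) with it and 0.62 without. Cdc42bpb, a kinase bound by the small GTPase Cdc42, had an interaction of 1.08 (95% interval 0.50 to 1.66). Epn1, an endocytic adaptor, had an interaction of 1.303 (95% interval 0.49 to 2.11). Mau2, part of the loader of cohesin, had an interaction of 0.92 (95% interval 0.33 to 1.502). Zc3h13, a subunit of the RNA methylation complex, had an interaction of 0.86 (95% interval 0.31 to 1.41). The list was completed by Zzef1 (interaction 1.12), R3hdm2 (interaction 0.74) and the pseudogene Gpr137b-ps (interaction 1.04).

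**Figure D4:**
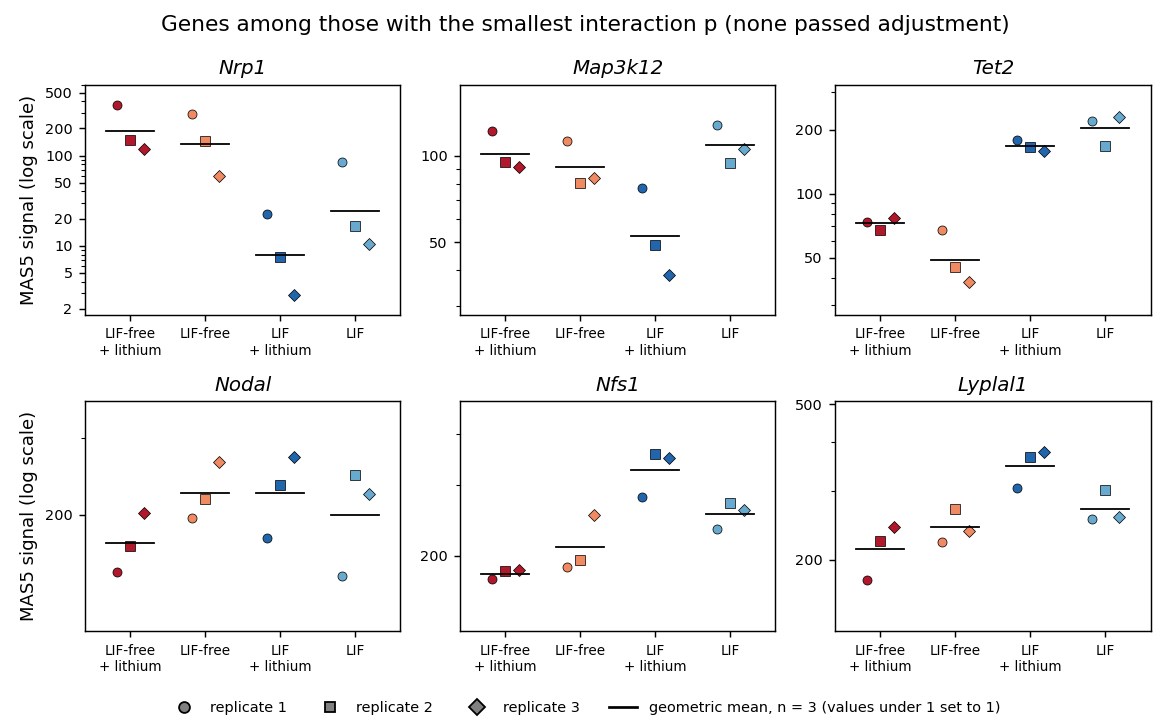
MAS5 signal (log axis) in the 12 arrays for 6 of the 24 genes with the smallest interaction p, 3 positive (top) and 3 negative (bottom), by condition from LIF-free plus lithium to LIF, with a symbol per replicate number and a bar at the geometric mean. In the top row the bars with lithium lie above those without it in LIF-free cultures and below them in LIF cultures, in the bottom row the other way round, and none of the 6 passed the adjusted test.

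The 12 negative genes had unadjusted p-values from 0.00528 to 0.0161, again with an adjusted p of 0.806 for each (limma). Cysrt1 had signals of 11.6, 53.7 and 5.72 in LIF-free plus lithium cultures and 38.6, 55.5 and 54.1 in LIF-free cultures, against 65.1, 54.5 and 57.3 in LIF plus lithium cultures and 32.4, 34.1 and 41.5 in LIF cultures. It had the largest size, an interaction of -2.39 (95% interval -3.94 to -0.84), from low LIF-free plus lithium replicates 1 and 3, while replicate 2 lay among the LIF-free values. With 16 units added its interaction was -1.43. Nfs1, the cysteine desulfurase of iron-sulfur cluster assembly, had signals of 175, 183 and 184 in LIF-free plus lithium cultures and 188, 195 and 253 in LIF-free cultures, against 279, 358 and 350 in LIF plus lithium cultures and 233, 271 and 259 in LIF cultures. LIF plus lithium arrays lay above all the others, and the interaction was -0.58 (95% interval -0.98 to -0.19, unadjusted p = 0.00711). Lyplal1, a lysophospholipase-like protein, had signals of 177, 223 and 243 in LIF-free plus lithium cultures and 222, 269 and 237 in LIF-free cultures, against 305, 367 and 376 in LIF plus lithium cultures and 254, 302 and 257 in LIF cultures. Its LIF plus lithium arrays were also the highest, and its interaction was -0.55 (95% interval -0.93 to -0.17, unadjusted p = 0.0078). Nodal, the TGF-beta family ligand of the epiblast and node, had signals of 148, 170 and 202 in LIF-free plus lithium cultures and 197, 217 and 264 in LIF-free cultures, against 177, 234 and 271 in LIF plus lithium cultures and 145, 247 and 223 in LIF cultures. LIF-free plus lithium lay below LIF-free in each replicate, and the interaction was -0.55 (95% interval -0.97 to -0.12, unadjusted p = 0.0153). Its other probe set had an interaction of -0.049, and Lefty2, the inhibitor of Nodal, had an interaction of -0.33 (95% interval -1.01 to 0.35).

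Cd1d1, which presents lipid antigens, had signals of 14.4, 21.3 and 40 in LIF-free plus lithium cultures and 29.8, 32.9 and 36.6 in LIF-free cultures, against 87.2, 131 and 205 in LIF plus lithium cultures and 68.5, 125 and 98.1 in LIF cultures. It fell in both withdrawals, by 2.53 log2 units with lithium and by 1.51 without, and its interaction was -1.01 (95% interval -1.78 to -0.25). Tcl1b3, a relative of Tcl1, had signals of 195, 212 and 206 in LIF-free plus lithium cultures and 242, 232 and 253 in LIF-free cultures, against 142, 516 and 507 in LIF plus lithium cultures and 151, 228 and 139 in LIF cultures. Replicates 2 and 3 of LIF plus lithium stood above every other array while replicate 1 did not, and the interaction was -1.23 (95% interval -2.18 to -0.28). Psmg2, a chaperone of proteasome assembly, had an interaction of -0.54 (95% interval -0.94 to -0.14), Fdx1, a mitochondrial ferredoxin, an interaction of -0.49 (95% interval -0.86 to -0.11), and Dnajc11, a mitochondrial protein of the DnaJ family, an interaction of -0.58 (95% interval -0.99 to -0.18). Rfx3, a transcription factor of ciliated cells, had an interaction of -1.03 (95% interval -1.82 to -0.24), Cyb5a, cytochrome b5, an interaction of -0.45 (95% interval -0.80 to -0.10), and Tmem14a -0.98 (95% interval -1.73 to -0.23).

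Other probe sets of these genes share the arrays but not the probes, so they check the probes only and cannot check the interaction. For 14 of the 24 genes there were 21 other tested probe sets, of which 16 had the sign of the brightest set and 0 of those had an unadjusted p under 0.05. Of the 11 bright ones, 10 had the same sign, and each was smaller in size than the brightest set of its gene. Mau2, for example, had 0.26 against 0.92, Psmg2 -0.11 against -0.54 and Ube2n 0.28 against 0.95. As these genes were ranked by the same arrays, their estimates are descriptions, and 0 of the 24 is a called interaction.

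**Figure D5:**
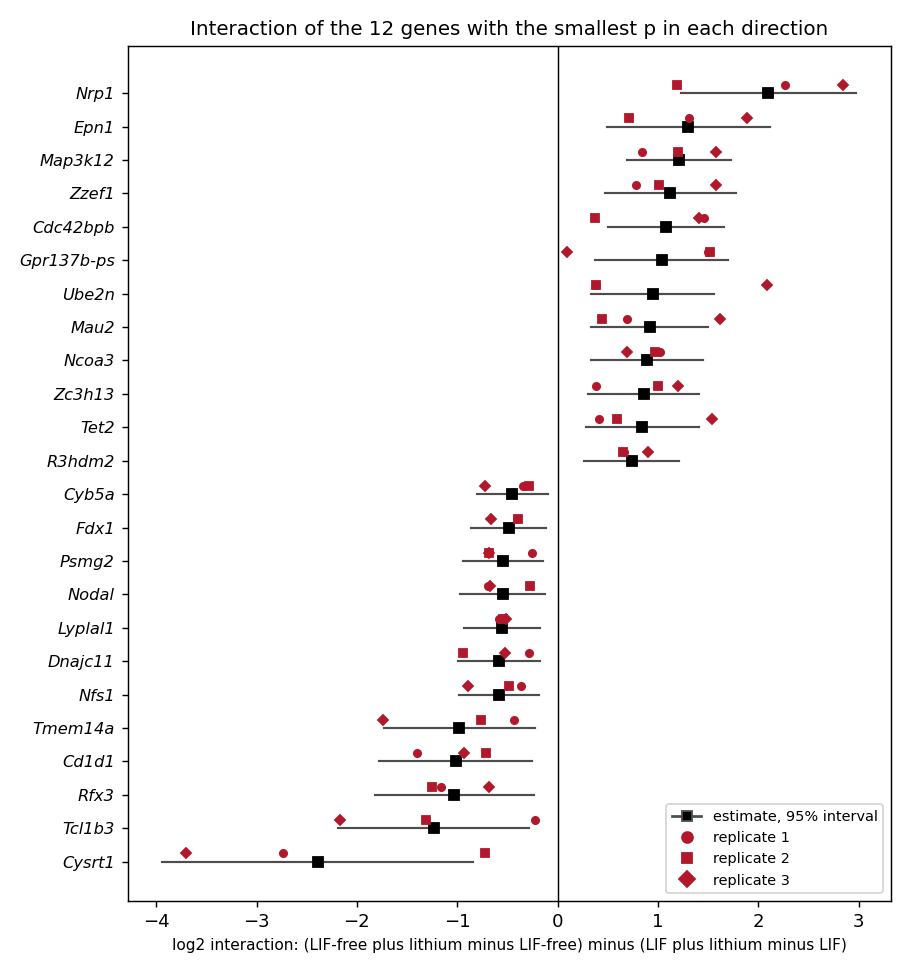
Log2 interaction (horizontal axis) of the 12 genes with the smallest p in each direction, 24 in all (rows). Black squares are estimates with 95% intervals from limma, and red symbols are the values of replicates 1, 2 and 3. Cysrt1 and Nrp1 have the largest sizes, and the adjusted p is 0.806 throughout.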

How the data were processed

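Expression was measured on 12 Affymetrix arrays of total RNA. The deposited values are MAS5 signal intensities (linear, not logged) that the authors computed with MAS5, per the submitters' processing notes, with no version or settings given in the sources used here. The mean of each array, without the lowest and highest 2% of values, was 100.001, so arrays had been scaled to 1 target. After removal of 64 control probe sets, a floor of 1 was applied (0.147% of tested values) before log2. Probe sets with a mean log2 above the 40th percentile (signal 7.52) were tested. Symbols came from the platform annotation: 34945 probe sets have 1 symbol, 932 several and 9160 none, and the last 2 kinds were not named. An _x_at set stood for a gene only where it had no other. No probe set is named T (Brachyury).

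limma 3.58.1 in R 4.3.3 fitted a mean per condition and the replicate number as a block to all 12 arrays (6 residual degrees of freedom), with eBayes and an intensity trend, and Benjamini-Hochberg adjustment over 27022 probe sets. All tests were two-sided, with a threshold of 0.05. The fit was also run on simulated data with known interactions. The share it recovered is not given here, so that run says nothing of the power to call an interaction. Named were the 12 bright genes with the smallest interaction p in each direction (passing over 156 symbols of the Rik, LOC and numbered Gm kinds), up to 3 of each of 29 lists, and 13 fixed genes. The members, lists and rule were chosen with earlier results of these data known. Plots used matplotlib 3.10.9 under Python 3.11.15. The number of arrays limits the precision.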

Additional observations from a re-analysis of the deposited data

How the results depend on the processing

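The interaction count stayed at 0 under all 21 alternatives (2 other scalings, a pseudocount of 16, 2 other filters, 2 other treatments of the replicate number, no intensity trend, array weights, and each of 12 arrays left out), with 666 to 2911 probe sets at an unadjusted p under 0.05 and a smallest adjusted p of 0.0821 (limma, without LIF-free plus lithium replicate 3). The lithium difference in LIF-free cultures also stayed at 0 calls, and that in LIF cultures ran from 0 to 3 when 1 array was left out. With no replicate block, LIF withdrawal called 3368 probe sets with lithium and 2515 without, and 1137 genes in both, and the interaction count was 0 with 666 at an unadjusted p under 0.05. Leaving out 1 array gave 3410 to 7513 calls for withdrawal with lithium and 2805 to 5450 without, lowest without LIF-free plus lithium replicate 2 and LIF-free replicate 3. The replicate block was kept because the comparison was defined with it. Deviations from condition means of equally numbered arrays correlated with r from 0.0317 to 0.542 over 6 pairs of conditions, and 2 values, both of LIF-free plus lithium replicate 2, were under 0.1, so the numbers are not shown to pair all cultures. Treating the number as a random block gave a correlation of 0.226 and 0 interaction calls. The 24 genes of smallest p kept their sign in all 21 alternatives. They were chosen for a small p on these same arrays, so nothing is read from that. Of the other 90 named genes 13 changed sign in some alternative, among them Pou5f1, Esrrb, Axin2 and Fgf5, whose intervals include 0. Of the 54 bright genes with an interaction over 1 log2 unit, 17 had a condition with a mean signal under 16. The cause of the changes between alternatives was not tested.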
